A study of Mus musculus with 15 samples.

Results

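The nuclear-encoded genes of oxidative phosphorylation were followed through an RNA immunoprecipitation sequencing (RIP-seq) study of Arid5a, an AT-rich interaction domain protein that binds messenger RNA. They were chosen by gene symbol, as the Nduf, Sdh, Uqcr, Cyc1, Cox4 to Cox8 and Atp5 genes of the deposited table, with pseudogene and opposite-strand symbols left out. The choice gave 86 of 25239 genes, spread over 19 chromosomes. No measured value entered the symbol rule, though the rule was chosen with earlier results of these data known. By symbol, 38 of the 86 were assigned to complex I, 4 to II, 9 to III, 18 to IV and 17 to complex V, the ATP synthase. This assignment rests on names alone. In all, 78 of them passed the filter on low counts and were tested among 17835 genes, and 73 were well expressed, taken here as an average log2 CPM (CPM being counts scaled to a common library total) of at least 5.

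The cells were ST2, a single mouse stromal line from bone marrow. They received IL-17 at 200 ng/mL or medium alone for 3 h, and were crosslinked with 1% formaldehyde. RNA was then recovered from lysates with an antibody against Arid5a or with mouse IgG2b as the control antibody. The 15 libraries form 4 groups: Arid5a RIP with IL-17 (4), IgG RIP with IL-17 (3, numbered 2 to 4), Arid5a RIP in medium (4) and IgG RIP in medium (4). The labels do not say that the numbered libraries came from separate cultures, so the p-values measure the spread between these libraries, which may be technical. No library of unprecipitated RNA was used here, so a value is the share of a transcript in a precipitate, and a change of the transcript in the cells and a change of its recovery cannot be told apart.

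Oxidative phosphorylation passes electrons from NADH through complex I and from succinate through complex II to ubiquinone. Complex III hands them to cytochrome c, and complex IV to oxygen, while complexes I, III and IV pump protons across the inner mitochondrial membrane and complex V uses the gradient to make ATP. Most subunits are encoded in the nucleus, translated in the cytosol and imported, and their mRNAs are mostly short and abundant. Mitochondrially encoded subunits are not analysed here.

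Library totals ran from 939139 counts in IgG medium 2 to 5713913 in Arid5a IL-17 3. Across the tested members, log2 CPM of libraries of the same group correlated with a Pearson r of 0.852 to 0.981. The stromal genes Col1a1 (6262 to 8973 CPM), Vim (6292 to 8320 CPM) and Cxcl12 (1400 to 2141 CPM) were abundant in all 15 libraries, Thy1 (0.184 to 14.9 CPM) and Vcam1 (5.32 to 42.2 CPM) were low, and none of 5 haematopoietic markers exceeded 7.90 CPM. A list of 1485 receptor genes of smell and pheromone sensing (the silent receptor genes below) summed to 1284 to 4191 CPM in the Arid5a IL-17 libraries and 2229 to 3492 CPM in the IgG IL-17 libraries. In medium they summed to 3353 to 5428 CPM in the Arid5a libraries and 1799 to 3163 CPM in the IgG libraries. Nsa2, a ribosome biogenesis factor, was enriched by the Arid5a antibody over IgG in both conditions, with log2 folds of 1.06 ± 0.17 with IL-17 (SE, adjusted p = 0.00697) and 0.71 ± 0.16 in medium (adjusted p = 0.0279). Ccl7, a chemokine gene, rose with IL-17 in the Arid5a RIP by a log2 fold of 2.85 ± 0.18 (adjusted p = 7.99e-14) and in the IgG RIP by 1.32 ± 0.19 (adjusted p = 9.55e-05).

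Levels between genes were compared only as FPKM, the deposited unit scaled to transcript length. The tested members spanned mean levels of 24.4 FPKM for Uqcrc2, a core protein of complex III, to 3108 FPKM for Cox6c, a small subunit of complex IV. There were 18 tested members at 300 FPKM or more and 10 under 50 FPKM. After Cox6c the highest mean levels were those of Atp5k (subunit e of the ATP synthase, 1961 FPKM), Atp5mpl (a small proteolipid of the same complex, 1731 FPKM) and Cox5b (a zinc-binding subunit of complex IV, 1208 FPKM). Some core subunits were lower per length. Ndufs1 (the large iron-sulfur subunit of complex I) stood at 28.2 FPKM and Sdha (the flavoprotein of complex II) at 54.5 FPKM. Cyc1 (cytochrome c1) stood at 35.5 FPKM. The α and β subunits of the ATP synthase, Atp5a1 and Atp5b, stood higher, at 236 and 339.9 FPKM. FPKM of the shortest transcripts depends on the length used, which for Atp5k ran from 55.2 to 146 nt between libraries.

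The complex IV genes separated by isoform. Cox4i1, the isoform found in most tissues, averaged 356 ± 58.5 FPKM in Arid5a IL-17, 309 ± 26.9 in IgG IL-17, 295 ± 23.4 in Arid5a medium and 269 ± 16.8 in IgG medium libraries (SD, n = 4, 3, 4 and 4). The tissue-restricted isoforms Cox4i2, Cox6a2, Cox6b2, Cox7a1, Cox7b2, Cox8b and Cox8c had at most 11 counts in any library and were not tested. Cox6a2, the heart and muscle isoform, had 2, 2, 3 and 2 counts in Arid5a IL-17 and 1, 0 and 0 in IgG IL-17 libraries. It had 4, 4, 8 and 6 counts in Arid5a medium and 0 in each of the 4 IgG medium libraries. The other member below the filter was Ndufa11b, with at most 7 counts in any library.

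The same mature subunit c of the ATP synthase ring is encoded by 3 genes, and all were present. Atp5g3 averaged 217 ± 15.2, 209 ± 7.29, 209 ± 30.3 and 277 ± 42.1 FPKM in the Arid5a IL-17, IgG IL-17, Arid5a medium and IgG medium libraries. Atp5g1 averaged 159.6 ± 23.1, 104 ± 30.3, 105 ± 6.85 and 151 ± 47.1 FPKM in the same groups, and Atp5g2 averaged 89.0 ± 22.5, 80.7 ± 12, 115 ± 33.9 and 111 ± 13.1 FPKM. Atp5g3 was thus the highest in every group, while Atp5g1 and Atp5g2 differed by less than the larger of their SDs in IgG IL-17, Arid5a medium and IgG medium.

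Counts of some members are uncertain, since their estimated counts were not whole numbers in many libraries. They were not whole in 15 libraries for Cox7c, in 13 for both Ndufb4 and Ndufb4c, in 12 for Ndufs5 and in 8 for Ndufa13. Ndufb4c received 176 to 1398 counts a library and Ndufb4 13.1 to 92.0 counts. Ndufb4c is a gene model of chromosome 15 (73809449 to 73809933) that overlaps Mroh5. Its implied length was 271 nt, beside 249 nt for Ndufb4. How reads were split between the 2 genes is uncertain, so calls of Ndufb4c below may rest on reads of Ndufb4. In all, 25 of the 78 tested members overlap another gene model in the RefSeq table, and whether the authors' counting used strand is not given in the sources used here.

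The members drew a narrow share of each library. Their summed level was 9461, 8983, 8816 and 9653 CPM of the library total in Arid5a IL-17 libraries 1 to 4 and 7524, 9361 and 8972 CPM in IgG IL-17 libraries 2 to 4. In medium it was 9074, 8160, 7857 and 8752 CPM in the Arid5a libraries and 8404, 11608, 11029 and 10339 CPM in the IgG libraries. The Arid5a and IgG libraries overlapped in both conditions, and IgG medium 1 lay below the other 3 libraries of its group. Complexes I, IV and V had their highest group means in IgG medium, at 2984 ± 368, 2708 ± 529 and 3449 ± 449 CPM (SD). In complex IV, IgG medium 1 was at 1947 CPM, below the 2040 to 2368 CPM of the Arid5a IL-17 libraries. The complex IV means were 2202 ± 145 CPM in Arid5a IL-17 and 1990.4 ± 279 in IgG IL-17 libraries. In medium they were 2023 ± 275 in the Arid5a and 2708 ± 529 in the IgG libraries. Complex II stood at 302 ± 32.6, 276 ± 24.4, 264 ± 24.2 and 271 ± 32.3 CPM in the same groups. In these bulk precipitates fewer cells with a transcript and less of it per cell cannot be told apart.

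**Figure D1:**
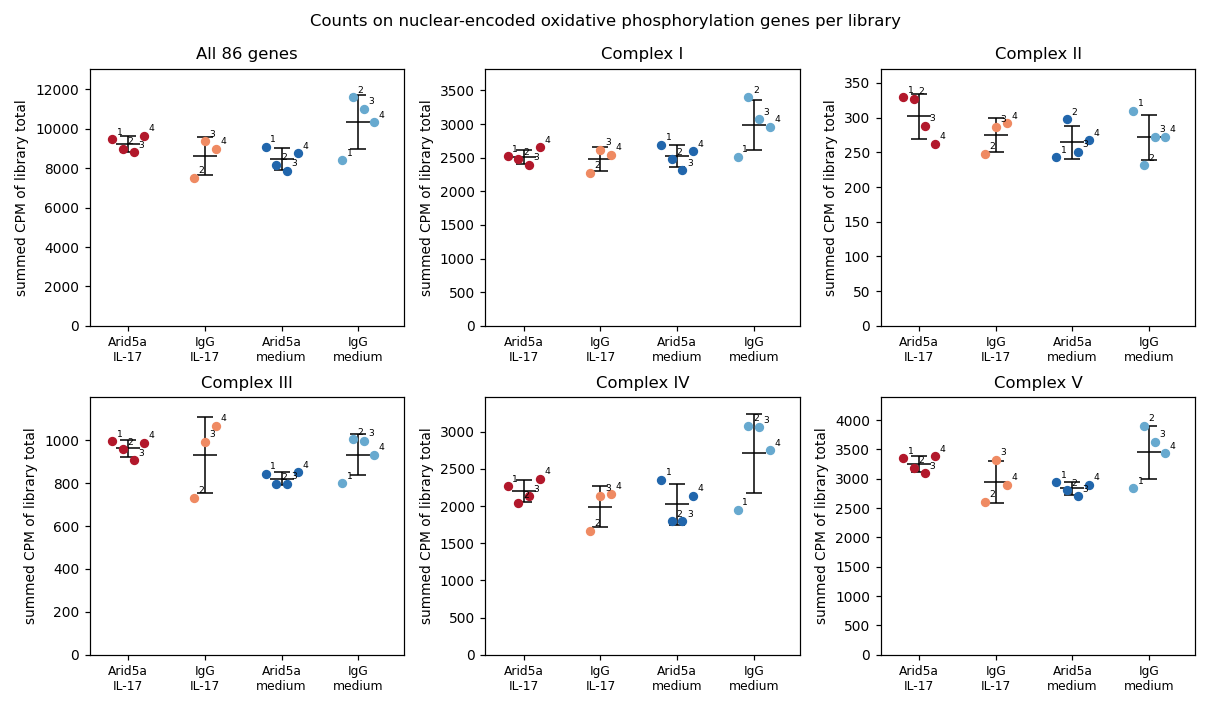
Summed CPM of the library total on the 86 genes and on each complex (y axes, from 0), by group on the x axis. Points are libraries with their replicate number, and bars are the mean and SD. IgG medium 1, at 8404 CPM over all 86 genes, lies below IgG medium 2, 3 and 4 (11608, 11029 and 10339 CPM).

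The first comparison asked which transcripts the Arid5a antibody enriched or depleted against IgG in unstimulated cells. Of 78 members, 0 were called higher in the Arid5a RIP and 2 lower, Uqcrb and Ndufa3, with a call being a Benjamini-Hochberg adjusted p below 0.05 over all 17835 genes in edgeR's quasi-likelihood test. Over all tested genes 0.0561% were called higher and 0.572% lower. The median log2 fold of the members was -0.35, with 69 of 78 below 0, while that of all 5394 well-expressed genes was -0.19 and that of all tested genes 0.04. At an unadjusted p below 0.05, 0 members were higher and 35 lower, beside 802 higher and 1477 lower of all 17835 tested genes and 71 higher and 1214 lower of the 5394 well-expressed genes. The medians by complex were -0.46 for I, -0.27 for II, -0.41 for III, -0.26 for IV and -0.41 for V.

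Uqcrb, which encodes the ubiquinone-binding subunit of complex III (chromosome 13, 66900576 to 66905350), stood at 145, 83.4, 132 and 166 TMM-scaled CPM in the Arid5a medium libraries and at 161, 235, 231 and 279.9 in the IgG medium libraries. Both groups met at IgG medium 1, which was below Arid5a medium 4. The log2 fold was -0.78 ± 0.19 (SE, adjusted p = 0.0470). Ndufa3, a small accessory subunit of complex I (chromosome 7, 3617347 to 3620165), stood at 32.6, 32.2, 23.2 and 21.2 TMM-scaled CPM in the Arid5a medium libraries and at 39.1, 75.2, 66.1 and 39.1 in the IgG medium libraries. Its groups did not overlap, and its log2 fold was -0.98 ± 0.25 (adjusted p = 0.0498).

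Further accessory subunits had low folds that missed the threshold. Ndufa1, a membrane subunit of complex I, was at -0.89 ± 0.24 (adjusted p = 0.0692), Ndufa5 at -0.88 ± 0.22 (adjusted p = 0.0545) and Cox6c at -0.87 ± 0.23 (adjusted p = 0.113). Ndufa5 stood at 152, 110.3, 111 and 144 TMM-scaled CPM in the Arid5a medium libraries and at 154, 422, 225 and 170.4 in the IgG medium libraries, where IgG medium 2 was highest. Among ATP synthase subunits, Atp5mpl was at -0.83 ± 0.29 and Atp5l, subunit g, at -0.82 ± 0.24.

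The core subunits that were listed for naming spanned folds on both sides of the members' median in medium. Complex I's NADH-binding Ndufv1 was at -0.13 ± 0.20 and Ndufs1 at -0.52 ± 0.21. Sdha was at -0.13 ± 0.16 and Sdhb, the iron-sulfur subunit of complex II, at -0.44 ± 0.22. In complex III the core protein Uqcrc1 was at -0.02 ± 0.20, Cyc1 at -0.12 ± 0.26 and the Rieske protein Uqcrfs1 at -0.48 ± 0.20. Cox4i1 was at 0.00 ± 0.15, Cox5a at -0.48 ± 0.20, Atp5a1 at -0.41 ± 0.14 and Atp5b at -0.25 ± 0.13, and none of these passed the test.

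The highest folds in medium were those of the accessory subunits Ndufb9 (0.35 ± 0.18) and Ndufc1 (0.28 ± 0.31) and of the core subunit Ndufs3 (0.21 ± 0.23), all of complex I. Atp5e, subunit ε, was at 0.08 ± 0.22, Cox6a1 at 0.08 ± 0.25 and Cox7a2l, a factor of respiratory supercomplexes, at 0.05 ± 0.20. Upper-quartile factors, library totals and TMM factors from well-expressed genes each gave 0 calls, with medians of -0.19, -0.16 and -0.16, while DESeq2 called 11 members lower. Without IgG medium 1, 15 members were called lower, without IgG medium 4 there were 3, and without any other single library 0 or 1. Over all tested genes 313 were called lower without IgG medium 1 and 102 without IgG medium 4, beside 102 as reported. Without Arid5a medium 2, Arid5a medium 3 or IgG medium 3, 0 of all tested genes were called lower.

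**Figure D2:**
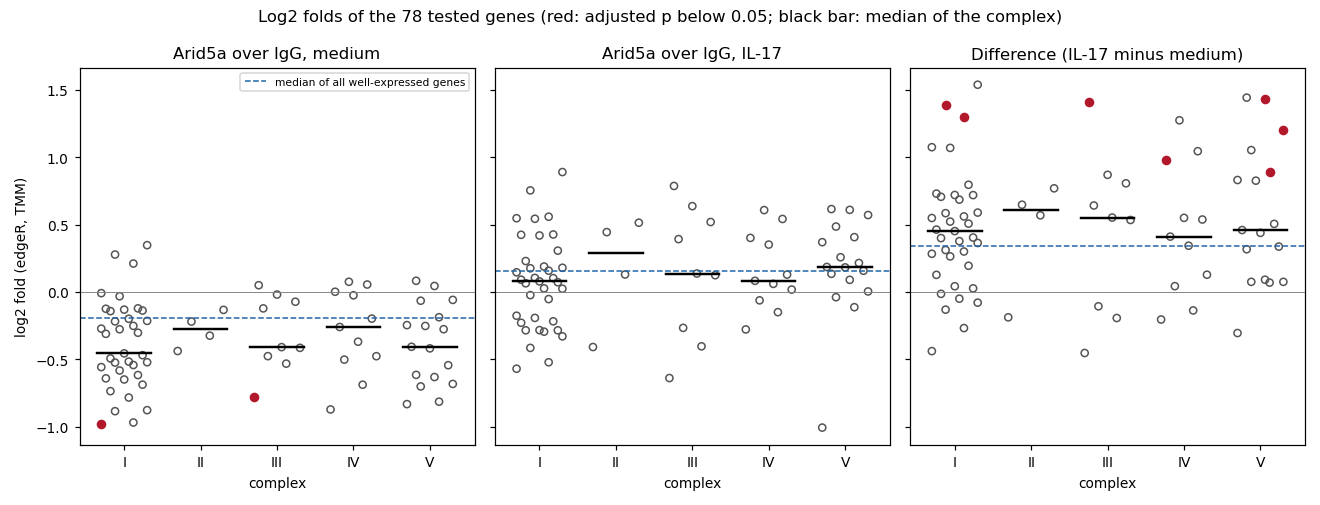
Log2 folds of the 78 tested genes (y axis) by complex (x axis) for Arid5a over IgG in medium, Arid5a over IgG with IL-17, and the difference of these folds. Filled red points have an adjusted p below 0.05 (2, 0 and 7 genes), black bars are medians of the complex, and dashed lines are the medians of all well-expressed genes (-0.19, 0.15 and 0.34).

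The second comparison asked the same of cells given IL-17, and edgeR called 0 of 78 members in either direction. Over all tested genes 0.0561% were called higher and 0.0112% lower. At an unadjusted p below 0.05, 14 members were higher and 2 lower, beside 846 higher and 750 lower of all tested genes and 688 higher and 71 lower of the 5394 well-expressed genes. DESeq2 called 2 members and limma voom with sample weights 6, all higher, and edgeR called 1 without Arid5a IL-17 4 and 2 without IgG IL-17 3. Without these libraries edgeR called 42 and 24 of all tested genes higher, beside 10 as reported. The median log2 fold of the members was 0.13, with 54 of 78 above 0, beside 0.15 for all well-expressed genes, and it was -0.04 with TMM factors from well-expressed genes.

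The highest fold with IL-17 was that of Ndufb4c, at 0.89 ± 0.21 (adjusted p = 0.0975), followed by Uqcrc1 at 0.79 ± 0.22 (adjusted p = 0.215). Uqcrc1 stood at 141, 175, 123 and 85.8 TMM-scaled CPM in the Arid5a IL-17 libraries and at 60.0, 107 and 61.3 in the IgG IL-17 libraries, so the groups overlapped between Arid5a IL-17 4 and IgG IL-17 3. Ndufc2, an accessory subunit of complex I, was at 0.75 ± 0.35, Uqcrb at 0.64 ± 0.20, Atp5l at 0.61 ± 0.26 and Atp5mpl at 0.61 ± 0.31. None of the listed core subunits passed: Sdha was at 0.51 ± 0.17, Ndufs1 at 0.55 ± 0.22, Atp5a1 at 0.48 ± 0.15, Atp5b at 0.19 ± 0.14 and Cox4i1 at 0.13 ± 0.16.

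The lowest folds with IL-17 among members above the naming limit on expression (an average log2 CPM of 4) were below 0 and missed the threshold. Atp5k, with the shortest implied transcript of the tested members (121 nt), stood at 71.5, 67.5, 119.7 and 176 TMM-scaled CPM in the Arid5a IL-17 libraries and at 246, 157 and 251 in the IgG IL-17 libraries. Its log2 fold was -1.01 ± 0.35 (adjusted p = 0.436), and the groups overlapped at Arid5a IL-17 4. Uqcrh, the hinge protein of complex III, stood at 57.0, 53.8, 74.7 and 73.0 in the Arid5a IL-17 libraries and at 99.6, 79.9 and 123 in the IgG IL-17 libraries, with a log2 fold of -0.64 ± 0.21 (adjusted p = 0.354). Ndufa1 was at -0.52 ± 0.26, Ndufa5 at -0.42 ± 0.23, Sdhc (a membrane anchor of complex II) at -0.41 ± 0.23 and Uqcr10 (a small subunit of complex III) at -0.40 ± 0.23.

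The third comparison asked whether the Arid5a over IgG fold differed between IL-17 and medium, tested as the interaction of antibody and treatment. Of the 78 members, 7 gained (8.97%) and 0 lost, where 0.869% of all tested genes gained and 0.107% lost. Among well-expressed genes 2.82% gained, against 9.59% of the 73 well-expressed members. The 7 were Uqcrb (complex III), Ndufb4c and Ndufa6 (complex I), Cox7b (complex IV) and Atp5a1, Atp5g1 and Atp5l (complex V). The members' median difference was 0.48, with 65 of 78 above 0, beside 0.34 for all well-expressed genes.

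Uqcrb stood at 315, 316, 253 and 286 TMM-scaled CPM in the Arid5a IL-17 libraries and at 129, 242 and 195 in the IgG IL-17 libraries, which is the reverse of its order in medium. The difference of the log2 folds was 1.41 ± 0.28 (adjusted p = 0.0149). Ndufb4c, summed here with Ndufb4 since the counts of both were fractional, gave 263 ± 32.4 TMM-scaled CPM in Arid5a IL-17, 149 ± 67.7 in IgG IL-17, 139 ± 8.82 in Arid5a medium and 205 ± 46.5 in IgG medium libraries (SD). Ndufb4c alone had a difference of 1.38 ± 0.28 (adjusted p = 0.0185), and Ndufb4 alone had 0.40 ± 0.62. The summed pair was not tested.

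Cox7b, a subunit of complex IV (chromosome X, 106015700 to 106022450), stood at 335, 341, 301 and 319.9 TMM-scaled CPM in Arid5a IL-17 and at 177, 209.8 and 254 in IgG IL-17 libraries. In medium it stood at 172, 164, 164 and 220.4 in the Arid5a and at 199.5, 256, 249.9 and 229.9 in the IgG libraries. The groups with IL-17 did not overlap, and the difference of the log2 folds was 0.98 ± 0.21 (adjusted p = 0.0208). Atp5a1 (chromosome 18, 77773768 to 77782869) stood at 754, 791, 679 and 555 in Arid5a IL-17 and at 444, 595 and 451 in IgG IL-17 libraries. In medium it stood at 449, 392, 368 and 369 in the Arid5a libraries, all below the 481, 563, 570.2 and 480.0 of the IgG libraries. Its difference was 0.89 ± 0.20 (adjusted p = 0.0223).

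For the other 3 the Arid5a level with IL-17 was close to the IgG level in medium. Atp5g1 averaged 90.6 ± 10.9 TMM-scaled CPM in Arid5a IL-17, 60.8 ± 12.2 in IgG IL-17, 58.5 ± 6.30 in Arid5a medium and 93.0 ± 31.6 in IgG medium libraries, a difference of 1.20 ± 0.29 (adjusted p = 0.0331). Ndufa6, a complex I subunit that binds the mitochondrial acyl carrier protein, averaged 88.4 ± 10.2, 60.3 ± 21.0, 60.8 ± 13.6 and 102 ± 30.6 in the same groups, a difference of 1.30 ± 0.31 (adjusted p = 0.0331). Atp5l averaged 168 ± 34.5, 110.2 ± 45.6, 92.8 ± 13.6 and 165 ± 50.5, a difference of 1.43 ± 0.35 (adjusted p = 0.0484). In these 3 genes IgG IL-17 2 or 4 was the lowest library with IL-17, and IgG medium 1 the lowest of its group.

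**Figure D3:**
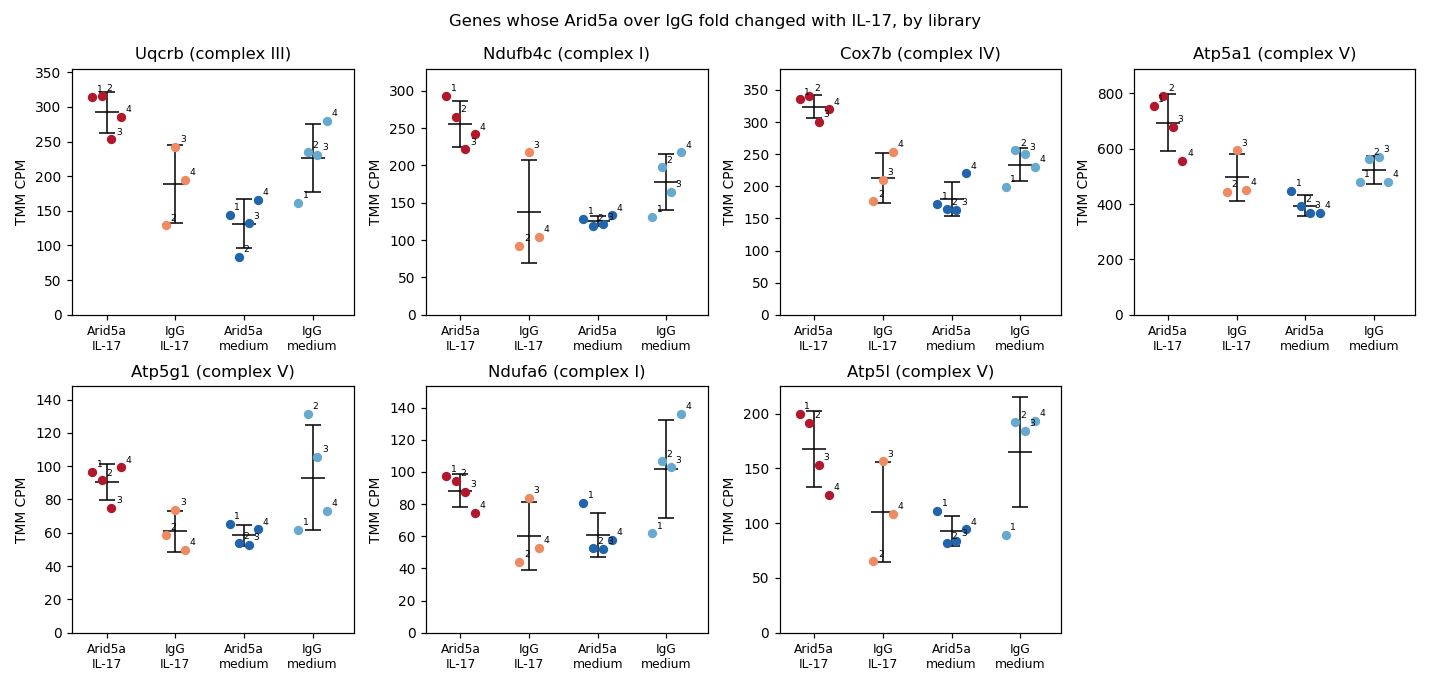
TMM-scaled CPM (y axes, from 0) of the 7 genes whose Arid5a over IgG fold changed with IL-17, by group (x axes). Points are libraries with replicate numbers, and bars are the mean and SD. In Atp5a1 every Arid5a medium library (368 to 449) lies below every IgG medium library (480.0 to 570.2).

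The promoters matched for 4 of the 7 members called in the interaction are shown. Each is the 250 bases before the start as the RefSeq table has it (GRCm38.p6, 5′ to 3′ on the gene's strand). A link between promoter letters and the interaction was not tested. The Atp5g1 window was taken from a start within its gene model (96072793 to 96075694) and overlaps that model, while the other windows adjoin theirs. The windows are those of Cox7b (chrX:106015450-106015699, plus strand), Atp5g1 (chr11:96075632-96075881, minus), Ndufa6 (chr15:82354292-82354541, minus) and Atp5l (chr9:44920743-44920992, minus). Capitals mark the core letters of NRF1 (GCATGCGC) and of ETS factors such as GABP (CCGGAAG), regulators known for respiratory genes, found on either strand. The core of YY1 (AAGATGGCG) was searched as well.
Cox7b: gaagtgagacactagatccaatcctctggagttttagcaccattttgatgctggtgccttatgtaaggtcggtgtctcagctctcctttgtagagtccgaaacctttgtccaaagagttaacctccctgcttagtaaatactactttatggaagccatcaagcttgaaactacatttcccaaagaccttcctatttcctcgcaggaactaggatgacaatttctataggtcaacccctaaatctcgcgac
Atp5g1: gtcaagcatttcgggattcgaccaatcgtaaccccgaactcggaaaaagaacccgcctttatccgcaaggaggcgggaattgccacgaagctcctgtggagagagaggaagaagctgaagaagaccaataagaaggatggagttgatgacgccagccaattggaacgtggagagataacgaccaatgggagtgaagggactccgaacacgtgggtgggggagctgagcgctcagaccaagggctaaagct
Ndufa6: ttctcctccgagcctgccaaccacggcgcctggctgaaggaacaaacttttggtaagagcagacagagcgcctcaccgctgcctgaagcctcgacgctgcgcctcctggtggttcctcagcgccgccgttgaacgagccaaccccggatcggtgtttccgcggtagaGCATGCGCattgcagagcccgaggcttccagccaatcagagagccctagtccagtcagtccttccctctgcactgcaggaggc
Atp5l: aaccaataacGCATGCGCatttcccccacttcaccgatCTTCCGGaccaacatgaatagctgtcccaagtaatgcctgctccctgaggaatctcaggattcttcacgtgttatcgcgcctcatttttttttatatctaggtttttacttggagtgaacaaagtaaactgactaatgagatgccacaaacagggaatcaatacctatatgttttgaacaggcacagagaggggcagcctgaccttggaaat
Ndufa6 holds the NRF1 letters 83 bases before the start, and Atp5l holds the NRF1 letters 240 and the ETS letters 212 bases before it, while Cox7b and Atp5g1 hold none of the 3 in this window. Of the 68 members matched in the table, 8 (11.8%) hold the NRF1 letters, 12 (17.6%) the ETS letters and 1 (1.47%) the YY1 letters. Over 27025 genes the shares are 2.56%, 7.83% and 0.711%. At least 1 of the 3 was found in 26.5% of the members and 10.5% of all genes. A match is only a match of letters, with overlapping matches on both strands counted once per gene.

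The other folds of the interaction spanned -0.45 to 1.54. Ndufc2 had the highest, 1.54 ± 0.48 (adjusted p = 0.116), and Atp5mpl was at 1.44 ± 0.42 (adjusted p = 0.112). The core subunits were at 1.07 ± 0.30 for Ndufs1 (adjusted p = 0.0682), 0.81 ± 0.30 for Uqcrc1, 0.87 ± 0.30 for Uqcrfs1, 0.65 ± 0.24 for Sdha, 0.64 ± 0.38 for Cyc1 and 0.44 ± 0.19 for Atp5b. Uqcr10 (-0.45 ± 0.32), Ndufs3 (-0.44 ± 0.34) and Atp5k (-0.31 ± 0.48) were the lowest. The 7 calls were lost under the other scalings, with 0 members called by upper-quartile factors, by library totals or by TMM factors from well-expressed genes, where the members' medians were 0.23, 0.18 and 0.15. Leaving out Arid5a IL-17 1 or 2, Arid5a medium 3, IgG IL-17 2 or IgG medium 3 gave 0 calls, and leaving out Arid5a medium 2, IgG IL-17 4 or Arid5a medium 4 gave 1, 2 and 3. Leaving out Arid5a IL-17 4, IgG IL-17 3 or IgG medium 1 gave 11, 13 and 14. The calls over all tested genes moved too, from 155 gaining as reported. In the settings with 0 member calls 0, 5, 4, 2 and 7 gained, in the order given. In those with 1, 2 and 3 member calls 19, 56 and 87 gained, and in those with 11, 13 and 14, 506, 192 and 376.

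The fourth comparison asked how the Arid5a RIP itself differed between IL-17 and medium. It held the most calls of the 5: 14 of 78 members, or 17.9%, were higher with IL-17 and 0 lower, where 4.84% of all tested genes were higher and 0.813% lower. Among well-expressed genes 15.4% were called higher, against 19.2% of the well-expressed members, so the members' share was near that of genes of like level. The median of the members was 0.26 and that of well-expressed genes 0.30, and with TMM factors from well-expressed genes the members' median turned to -0.05. Every complex had a called member: 5 of 37 in I, 1 of 4 in II, 1 of 9 in III, 2 of 11 in IV and 5 of 17 in V.

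The smallest adjusted p values were those of Atp5a1 (0.82 ± 0.14, adjusted p = 0.000204), Cox7b (0.85 ± 0.14, adjusted p = 0.00023) and Uqcrb (1.15 ± 0.19, adjusted p = 0.00023), whose libraries are given with the interaction and did not overlap between IL-17 and medium. Ndufb4c rose by 1.02 ± 0.19 (adjusted p = 0.00106). Cox8a, a small subunit of complex IV, stood at 371, 362, 263 and 214 TMM-scaled CPM in the Arid5a IL-17 libraries and at 195, 184, 113 and 154 in the Arid5a medium libraries, a log2 fold of 0.91 ± 0.21 (adjusted p = 0.00912). Ndufc2 stood at 80.3, 105, 61.8 and 49.3 in the Arid5a IL-17 libraries and at 33.2, 28.5, 27.1 and 33.7 in the Arid5a medium libraries, a log2 fold of 1.27 ± 0.32 (adjusted p = 0.0230). Neither gene's groups overlapped, and in both the lowest library with IL-17 was Arid5a IL-17 4.

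Core subunits were among the rest. Sdha stood at 215, 221, 179 and 136 TMM-scaled CPM in Arid5a IL-17 and at 126, 132, 113 and 127 in Arid5a medium libraries, a log2 fold of 0.60 ± 0.16 (adjusted p = 0.0203). Ndufs1 rose by 0.69 ± 0.20 (adjusted p = 0.0348), Ndufs4 (an accessory subunit next to the NADH-binding module) by 0.65 ± 0.18 (adjusted p = 0.0247) and Ndufa13 by 0.66 ± 0.19 (adjusted p = 0.0348). In complex V, Atp5l rose by 0.85 ± 0.24 (adjusted p = 0.0340), Atp5j2 (subunit f) by 0.76 ± 0.19 (adjusted p = 0.0140), Atp5g1 by 0.63 ± 0.19 (adjusted p = 0.0478) and Atp5h (subunit d) by 0.54 ± 0.16 (adjusted p = 0.0363). Of the 14, only Atp5j2 had overlapping groups. The calls rest on these same libraries, so the separation of the others is no further support. The share of non-overlapping genes over all tested genes was not counted. Atp5b (0.38 ± 0.13), Cox4i1 (0.28 ± 0.15), Ndufv1 (0.48 ± 0.19), Sdhb (0.39 ± 0.21), Cyc1 (0.35 ± 0.26), Uqcrfs1 (0.18 ± 0.20) and Cox5a (-0.17 ± 0.20) did not pass. Above the same naming limit the lowest folds were those of Atp5k (-1.04 ± 0.33, adjusted p = 0.0908), Ndufa1 (-0.66 ± 0.24), Uqcrh (-0.46 ± 0.20) and Atp5g2 (-0.42 ± 0.22).

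In place of 14 calls there were 4 with upper-quartile factors, 4 with library totals (3 higher and 1 lower) and 6 with TMM factors from well-expressed genes (3 higher and 3 lower). Leaving out Arid5a IL-17 1, 2 or 3 gave 4, 4 and 8 calls, and leaving out Arid5a medium 1, 2 or 3 gave 8, 7 and 6. Over all tested genes 321, 296 and 447, and 495, 437 and 415, were then called higher, beside 863 as reported. The summed level of the silent receptor genes averaged 2135 ± 1377 CPM (SD) in Arid5a IL-17 and 4228 ± 986 in Arid5a medium libraries, with overlapping ranges. With it as a covariate edgeR called 0 members here, in both Arid5a over IgG comparisons and in the interaction. This covariate differs in part by group and so shares variation with the differences tested. Its calls over all tested genes are not given here, and why the member calls were lost was not tested.

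The fifth comparison set IgG IL-17 against IgG medium libraries and gave 0 called members in edgeR, where 0.258% of all tested genes were higher and 0.235% lower. At an unadjusted p below 0.05, 2 members were higher and 20 lower, beside 897 higher and 1091 lower of all tested genes and 353 higher and 660 lower of the 5394 well-expressed genes. DESeq2 called 4 members, all lower, and limma voom 0. The members' median was -0.21, with 60 of 78 below 0, and that of well-expressed genes -0.04. Ndufa1 had the lowest fold of those above the naming limit on expression, at -1.02 ± 0.26 (adjusted p = 0.0691), with 54.0, 36.1 and 72.3 TMM-scaled CPM in the IgG IL-17 and 85.9, 140.4, 136 and 80.1 in the IgG medium libraries, which did not overlap. Ndufa3 was at -0.81 ± 0.27, Cox6c at -0.80 ± 0.26 and Ndufa5 at -0.77 ± 0.23. Ndufc1 (0.85 ± 0.33) and Uqcr10 (0.70 ± 0.24) were the highest, and Uqcr10 stood at 50.1, 79.5 and 148 TMM-scaled CPM in IgG IL-17 2 to 4, above the 47.2 to 60.8 of the IgG medium libraries only in replicates 3 and 4. Without IgG medium 1, 7 members were called, and without IgG IL-17 4 or IgG medium 4 there was 1. The interaction, both Arid5a over IgG comparisons and both IL-17 comparisons share libraries, so their values are not independent.

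**Figure D4:**
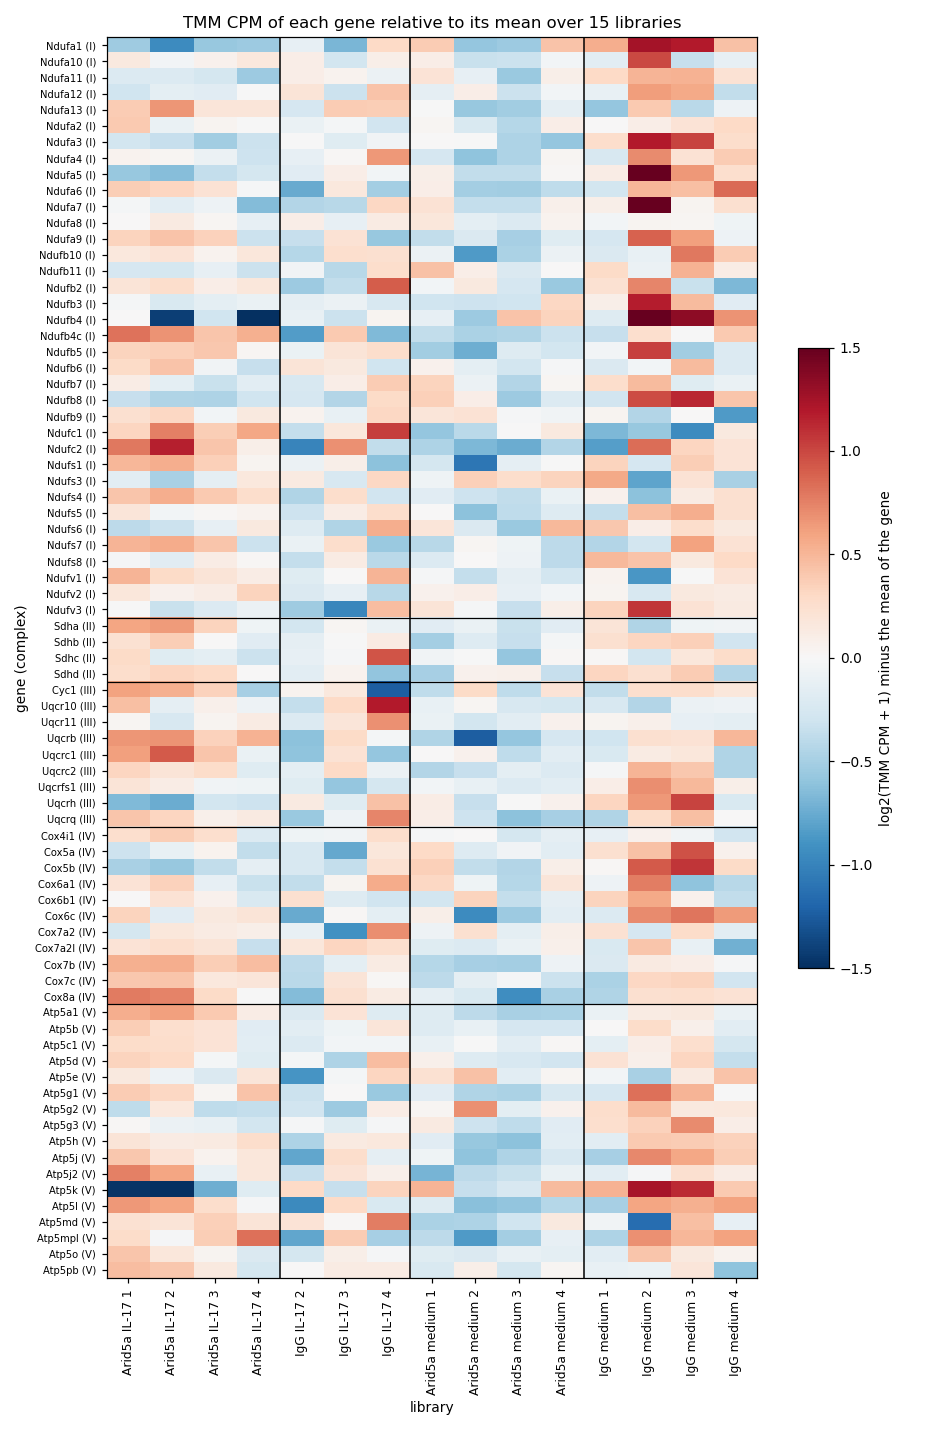
Log2(TMM-scaled CPM + 1) of tested genes (rows, ordered by complex), each minus its mean over the 15 libraries (columns, by group). Red is above the gene's mean and blue below, and colours stop at 1.5. Most rows are red in Arid5a IL-17 1 and 2, while Atp5k, Ndufa1, Uqcrh and Cox5b are blue there and red in IgG medium 2 and 3.

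Transcript length is a feature that the members share. The length implied by the deposited counts and FPKM had a median of 500.1 nt over the tested members and 3236 nt over all well-expressed genes, and 39 of the 78 were under 500 nt. This implied length is an effective one, which shortens as sequenced fragments lengthen, and it differed between libraries. Over 2921 long, well-expressed genes it stood -80.5, -105, -54.0 and -28.2 nt from its median over all libraries in Arid5a IL-17 1 to 4 and 31.5, -40.5 and 7.80 nt from it in IgG IL-17 2 to 4. In medium it stood 9.13, 23.8, 11.4 and 15.8 nt from it in the Arid5a libraries and 21.4, -2.59, 0 and -23.9 nt in the IgG libraries. Atp5k thus had an implied length of 55.2 nt in the library where it was shortest and of 146 nt where it was longest.

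All 4 Arid5a IL-17 libraries lay below that median in implied length, and all 4 Arid5a medium libraries above it. With the implied length of each gene in each library as an offset in edgeR, an alternative chosen after seeing the data, 24 members (30.8%) were called higher with IL-17 in the Arid5a RIP and 0 lower, and the median was 0.48 beside 0.31 for well-expressed genes. With this offset 5.54% of all tested genes, 17.6% of well-expressed genes, 32.1% of well-expressed genes under 500 nt (median 0.45) and 46.9% of cytosolic ribosomal protein genes were called higher, so the members' share was near that of short genes. The interaction then had 6 calls (7.69%, beside 0.807% of all tested genes and 5.88% of well-expressed genes under 500 nt) and a median of 0.67, beside 0.32 for well-expressed genes and 0.62 for the short ones. In FPKM the summed level of the members was 26791, 26700, 23018 and 25262 in the Arid5a IL-17 libraries and 15433, 24549 and 20489 in the IgG IL-17 libraries. It was 20951, 16608, 17255 and 19951 in the Arid5a medium libraries, all below the lowest Arid5a IL-17 library, and 18214, 29671, 27537 and 28046 in the IgG medium libraries. These sums were not scaled to the FPKM of all genes, which differed between groups. That total averaged 1066835 in Arid5a IL-17, 1013301 in IgG IL-17, 1165069 in Arid5a medium and 1371389 in IgG medium libraries. By limma on log2(FPKM + 1) no member was called in any of the 5 comparisons. Across the 78 members the counts-based fold of the fourth comparison had a Spearman rank correlation with implied length of 0.18, and of 0.27 and 0.30 in the first and second comparisons, as a description of genes that share libraries.

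**Figure D5:**
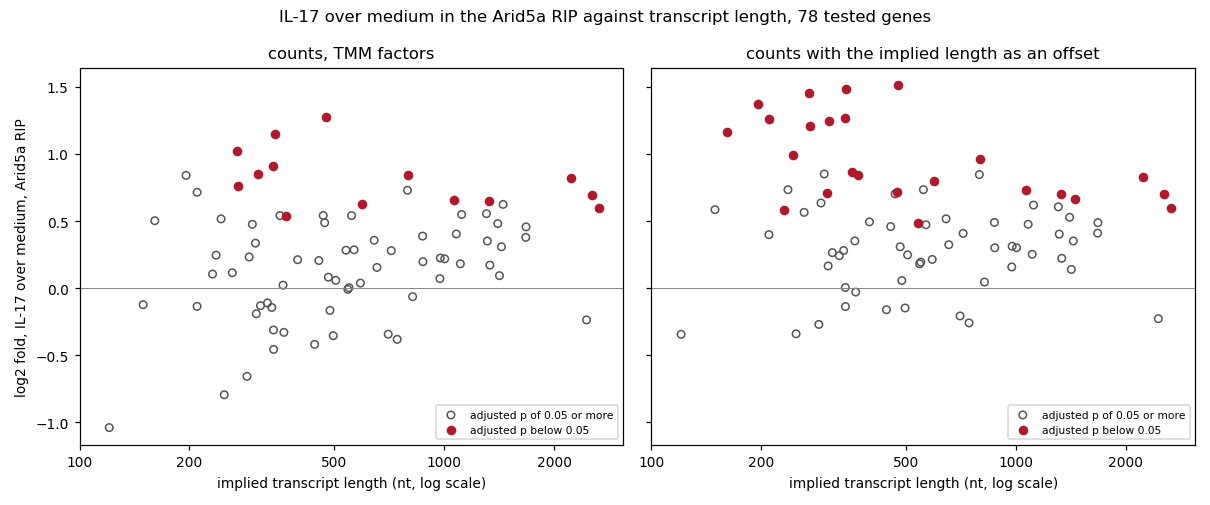
Log2 fold of IL-17 over medium in the Arid5a RIP (y axis) against implied transcript length in nt (x axis, log scale) for the 78 tested genes, from counts with TMM factors and from counts with the implied length as an offset. Filled red points have an adjusted p below 0.05: 14 genes in the first panel and 24 in the second.

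Other genes of the same organelle were counted from lists by function, and the genes named from them were chosen after their values were seen, other than assembly factors. Of 50 assembly factors of the complexes, 0 were called in any of the 5 comparisons by edgeR, and at an unadjusted p below 0.05 the interaction had 7 higher and 0 lower, beside 1697 higher and 1208 lower of all tested genes. A list of 11 carrier genes held Cycs (cytochrome c), Ndufab1 (the acyl carrier protein bound by complex I) and genes of coenzyme Q synthesis. Of these, Ndufab1 gained in the interaction (1.24 ± 0.30, adjusted p = 0.0331). Both Ndufab1 (0.76 ± 0.20) and Cycs (0.61 ± 0.15) rose with IL-17 in the Arid5a RIP. Of 18 genes of the TCA cycle, 3 rose with IL-17 in the Arid5a RIP, namely Dld, Pdha1 and Sucla2, with log2 folds of 0.71, 0.56 and 0.63, and 0 were called in the other 4 comparisons.

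Of 78 mitochondrial ribosomal protein genes, 2 were lower in Arid5a medium than in IgG medium libraries (Mrps21 at -0.87 and Mrps14 at -0.74), 1 gained in the interaction (Mrpl42 at 1.30), 3 rose with IL-17 in the Arid5a RIP and 1 fell in the IgG RIP. Of 24 tested import genes, Tomm7, a small subunit of the outer membrane translocase, was lower in the Arid5a RIP in medium (-1.02 ± 0.20, adjusted p = 0.0171) and gained in the interaction (1.20 ± 0.29, adjusted p = 0.0331), and 6 rose with IL-17 in the Arid5a RIP. Of 12 regulators of mitochondrial biogenesis, Gabpa gained in the interaction (0.92 ± 0.23, adjusted p = 0.0400). Gabpa overlaps the ATP synthase gene Atp5j in the RefSeq table.

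Cytosolic ribosomal protein and proteasome genes, abundant but outside the organelle, were counted as well. Of 81 tested cytosolic ribosomal protein genes, 21 (25.9%) rose with IL-17 in the Arid5a RIP, and of 37 tested proteasome subunit genes 7 (18.9%) did, beside 14 (17.9%) of the members and 15.4% of well-expressed genes. In the interaction 1 of the 81 cytosolic ribosomal protein genes and 2 of the 37 proteasome genes gained, beside 7 of the 78 members, and the differences between lists were not tested. There 0.869% of all tested and 2.82% of well-expressed genes gained. In medium the Arid5a over IgG medians were -0.06 for cytosolic ribosomal protein genes and -0.24 for proteasome genes, beside -0.35 for the members. The silent receptor genes had a median of 0.74 in medium and -0.47 with IL-17 over 695 tested genes.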

How the data were processed

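The authors deposited expected counts (estimated counts, not whole numbers throughout) and FPKM for 25239 genes in 15 RIP-seq libraries, made with a stranded kit per the labels' protocols. STAR 2.7.9, RSEM 1.3.1, DESeq2 1.36.0, R 4.3.0 and the mm10 build are named per the submitters' processing notes, while what each tool did, which annotation was used and how strand was handled is not given in the sources used here. The deposited expected counts were rounded to whole numbers. In edgeR 4.0.16 (R 4.3.3), filterByExpr removed low genes, TMM gave the scaling factors, and a robust quasi-likelihood model with a mean for each of 4 groups was fitted to all 15 libraries. The threshold was a Benjamini-Hochberg adjusted p below 0.05 over the 17835 genes tested, and every adjusted p comes from this fit. Log2 folds carry the standard error of the fit. The common biological coefficient of variation was 0.341.

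Implied transcript length is the count divided by the deposited FPKM and the library total, for values of at least 1 FPKM, with long genes taken as 3000 nt or more. Alternatives were upper-quartile factors, library totals, TMM factors from well-expressed genes, DESeq2 1.42.0, limma 3.58.1 voom with sample weights, other filters, only the compared libraries, a replicate block, log2 FPKM in limma with a pseudocount of 1 or 0.1, the silent receptor level as a covariate, and left-out libraries. The implied length as an offset, the same with TMM factors from well-expressed genes, and the summed CPM of genes under 500 nt as a covariate were added after seeing the data.

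The genes followed here, the comparison lists and the alternatives were chosen with earlier results of these data known. The lists were assembly factors, carriers with coenzyme Q synthesis, TCA cycle, mitochondrial ribosomal proteins, import and biogenesis regulators. Further lists were cytosolic ribosomal proteins, proteasome subunits and silent receptor genes. Named genes were, per comparison, up to 12 called members by smallest p, the 6 highest and 6 lowest folds at an average log2 CPM of at least 4, the listed core subunits (Ndufs1, Ndufv1, Sdha, Sdhb, Uqcrc1, Uqcrfs1, Cyc1, Cox4i1, Cox5a, Atp5a1, Atp5b), the tissue isoforms of complex IV, Nsa2 and Ccl7. A further core subunit of this list is not reported here. Members named for level, fractional counts or promoters, and Atp5g1 and Atp5h in the fourth comparison, were chosen after their values were seen. All 86 symbols matched the RefSeq table of GRCm38.p6, the source of coordinates and promoters.

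Tested on simulated counts, the procedure for Arid5a against IgG in medium recovered 66 of 100 genes with a 2-fold change and 100 of 100 with a 4-fold change, with 6 unchanged genes called of 17354. For the interaction it recovered 30 and 93, with 4 unchanged genes called of 17202. For IL-17 against medium in the Arid5a RIP it recovered 72 and 99, with 18 unchanged genes called of 17190. Unchanged genes were simulated from a common mean over all libraries with the fitted spread of each gene. The changed genes had an average log2 CPM of at least 4. No shift of composition or fragment length between groups was simulated, so these counts do not cover such shifts in the data.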

Additional observations from a re-analysis of the deposited data

Results flagged for a closer look

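In 7 of the 144 groups of 4 libraries examined (42 genes, the summed level of the members and that of each complex, 3 groups each), the highest or lowest library stood apart from the others by more than Dixon's 95% critical value, where chance flags about 1 group in 20. In TMM-scaled CPM, Atp5g2 was 46.7 in Arid5a IL-17 2 and 31.8 to 32.3 in the other 3 libraries, Ndufa1 was 30.1 in the same library beside 39.4 to 40.3, and Cox7a2l was 52.1 in Arid5a IL-17 4 beside 76.2 to 79.1. Cox7b was 220.4 in Arid5a medium 4 beside 164 to 172, and Sdhc was 37.0 in Arid5a medium 3 beside 54.1 to 56.7. IgG medium 1 was low in Atp5l, at 89.4 beside 185 to 193, and in Cox8a, at 158 beside 250.4 to 256.

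The change of the Arid5a over IgG log2 fold with IL-17, tested as an interaction in edgeR, passed the threshold in Uqcrb (1.41), Ndufb4c (1.38), Cox7b (0.98), Atp5a1 (0.89), Atp5g1 (1.20), Ndufa6 (1.30) and Atp5l (1.43). The adjusted p of these 7 genes is given with their libraries.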

How the results depend on the processing

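Numbers of called members are given in the order Arid5a over IgG in medium, Arid5a over IgG with IL-17, interaction, IL-17 over medium in the Arid5a RIP and in the IgG RIP, and were 2, 0, 7, 14 and 0 as reported. They were 0, 0, 0, 4 and 0 with upper-quartile factors or library totals, 0, 0, 0, 6 and 0 with TMM factors from well-expressed genes, and 11, 2, 8, 12 and 4 with DESeq2. They were 2, 6, 15, 40 (36 higher and 4 lower) and 0 with limma voom, 2, 1, 8, 15 and 1 without a filter, and 0, 0, 4, 10 and 0 with a minimum of 10 counts in all libraries of a group. With only the libraries compared they were 0, 0, 30 (28 higher and 2 lower) and 0 for the comparisons other than the interaction. They were 0 throughout with limma on log2(FPKM + 1) or log2(FPKM + 0.1) and with the silent receptor covariate, and 0, 0, 5, 21 and 1 without IgG medium 2 and IgG IL-17 4. With the implied length as an offset they were 1, 0, 6, 24 and 0, with the short transcript covariate 0, 2, 12, 15 and 0, and with well-expressed TMM factors plus the length offset 0, 0, 0, 4 and 1. Leaving out 1 library gave 0 to 15, 0 to 2, 0 to 14, 4 to 18 and 0 to 7. Calls over all tested genes moved as well. In the interaction 0 genes gained without Arid5a IL-17 1 and 506 without Arid5a IL-17 4. Most other settings are given here for the members alone, without the share over all tested genes.

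With the replicate number as a block they were 1, 0, 4, 10 and 0. Deviations of same-numbered libraries from their group means correlated with r from -0.126 to 0.195 and exceeded 0.1 in 1 of 21 pairs. Pairs of other numbers had r from -0.197 to 0.161 and exceeded 0.1 in 8 of 63. With so few libraries a group, these values cannot tell whether same-numbered libraries shared a culture, which the labels do not say. None of the called members named by the rule (2, 7 and 12 genes in medium, in the interaction and in the Arid5a RIP) changed sign in the settings run. Uqcrb and Ndufa3 were called in medium in 6 of 31 settings other than the reported one, the 7 interaction genes in 8 to 18 of 30, and the 12 genes named by the rule in the fourth comparison in 15 to 28 of 31. The median of well-expressed genes was -0.19, 0.15, 0.34, 0.30 and -0.04 as reported and lay between -0.01 and 0.00 with TMM factors from those genes, where the members' medians were -0.16, -0.04, 0.15, -0.05 and -0.18. Depth limits the members most in IgG medium 2, with 939139 counts in all. The cause of these differences between settings was not tested.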
